A study of Mus musculus with 8 samples.

Results

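A set of 8 genes linked to the pancreatic duct and to the primary cilium was followed across 4 pools of mouse pancreatic buds: Spp1, Cftr, Car2, Pkhd1, Bicc1, Dcdc2a, Prom1 and Glis3. They were chosen by symbol, and a gene counted as measured when a probe set of the array was annotated to that symbol alone. Measured in this way were 7 of the 8 genes, out of 19938 genes on the array, and Spp1 was not analysed here. Bicc1 had 2 probe sets, of which the one with the higher mean over the 8 arrays was used, and each of the other measured genes had 1.

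RNA came from buds of mouse embryos at e12.5, measured on whole-transcript Affymetrix arrays. The VEGF pool held buds of 3 embryos with both the Pdx1-tTA and the TET-VEGF transgene, and the control pool held buds of 3 littermates with Pdx1-tTA alone. The tetracycline transactivator tTA is driven in both by the promoter of Pdx1, which is active in the pancreatic epithelium, so both pools carry it and only the VEGF pool carries the VEGF gene that it switches on. Wild type buds taken at the same stage and explanted for 2 days gave the explant pools, 5 in each: one is labelled VEGFR2i, an inhibitor of VEGF receptor 2, and the other vehicle. Each pool was hybridized to 2 arrays, the second a technical repeat. A condition was therefore 1 pool of RNA, no test of a condition was possible, and the SDs given here (n = 2 arrays) measure technical error only.

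Duct cells line the tubes that carry the digestive juice of the pancreas, and they add a bicarbonate-rich fluid to it. In the embryo they arise from the trunk of the branching epithelium, which also gives rise to endocrine cells, while the tips give rise to acinar cells. Duct cells carry a primary cilium, a microtubule-based sensor on the luminal surface, and loss of cilium proteins leads to dilated ducts and cysts. Car2, a carbonic anhydrase, makes bicarbonate from carbon dioxide, and Cftr is the apical chloride and bicarbonate channel that is defective in cystic fibrosis. Prom1 encodes prominin, a membrane protein of apical protrusions. Pkhd1 encodes fibrocystin, a ciliary membrane protein mutated in recessive polycystic kidney disease. Bicc1 encodes an RNA-binding protein whose loss causes cysts. Dcdc2a encodes a doublecortin-domain protein of microtubules and cilia. Glis3 is a zinc finger transcription factor found at the cilium and needed for ducts and beta cells. Spp1 encodes osteopontin, a secreted protein of duct cells.

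The promoters of Pkhd1, Dcdc2a and Glis3 are shown because these genes had the largest differences between explants and buds among those measured, as described below. Each run is the 250 bases before a transcription start on the gene's own strand, from RefSeq on GRCm38.p6. Capitals mark CG dinucleotides, the sites of DNA methylation in mammals. The window of Pkhd1 is chr1:20618058-20618307 on the minus strand, that of Dcdc2a is chr13:25055754-25056003 on the plus strand, and that of Glis3 is chr19:28680078-28680327 on the minus strand. These starts are not the outer ends of the genes. The span of Dcdc2a begins at 25055273, so its window lies wholly inside the gene. The spans of Glis3 and Pkhd1 end at 28680265 and 20618082, so their windows lie partly inside.
Pkhd1: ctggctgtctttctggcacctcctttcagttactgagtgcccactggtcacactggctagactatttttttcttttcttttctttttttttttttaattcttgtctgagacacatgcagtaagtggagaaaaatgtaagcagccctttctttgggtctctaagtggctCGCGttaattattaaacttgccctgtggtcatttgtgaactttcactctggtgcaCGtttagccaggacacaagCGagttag
Dcdc2a: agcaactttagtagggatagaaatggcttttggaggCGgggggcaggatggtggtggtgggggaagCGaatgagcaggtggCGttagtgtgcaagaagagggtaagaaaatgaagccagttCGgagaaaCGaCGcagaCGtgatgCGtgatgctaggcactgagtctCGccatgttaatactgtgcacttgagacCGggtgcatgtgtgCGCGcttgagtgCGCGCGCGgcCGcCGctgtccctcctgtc
Glis3: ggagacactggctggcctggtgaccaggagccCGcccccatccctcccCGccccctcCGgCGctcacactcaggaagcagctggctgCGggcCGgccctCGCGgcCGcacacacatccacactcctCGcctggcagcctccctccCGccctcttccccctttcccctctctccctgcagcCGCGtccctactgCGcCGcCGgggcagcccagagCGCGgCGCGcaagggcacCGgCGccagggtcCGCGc
The window of Glis3 has 75.6% G and C with 24 CG dinucleotides, against 57.2% and 18 in Dcdc2a and 42% and 4 in Pkhd1, so the 3 windows have unlike composition. The median over 32851 promoter windows of this length was 52.4% G and C and 6 CG dinucleotides. Of the other genes, Cftr had 76.4% and 30. The letters of 3 motifs were searched on both strands in the 8 windows of the 6 genes with an entry. The SOX core ACAATG (in 10.7% of all windows) and the RFX letters GTTGCC (10.4%) were in no window of these genes, and the E-box CAGCTG (13.0%) was in that of Glis3. A match describes letters and does not show binding. Car2 and Bicc1 were not examined for these letters.

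Values are log2 expression. The arrays of a pool correlated at 0.997 to 0.998 across probe sets, and array medians were 4.08 to 4.12 in the buds and 4.29 to 4.33 in the explants. To be called higher or lower, a gene needed a difference of pool means of 1.5-fold or more, which is 0.58 in log2 units, with no overlap between the arrays of the pools. Between the 2 arrays of 1 pool, 4 to 25 of 19938 genes differed by that size. The buds are whole organs, so fewer cells of a type and less RNA per cell cannot be told apart in any difference given here.

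Set against the control buds, the VEGF buds had more Car2 RNA and no other called gene among the 7. Of all genes, 0.552% were called higher and 0.933% lower in this comparison, and of the 7 measured genes 1 was called higher and 0 lower. Pkhd1, Dcdc2a, Glis3 and Bicc1 had differences below 0 and Prom1 and Cftr were near 0, where 48.3% of all genes had differences below 0. The median difference over the 7 genes was -0.25, or -0.37 without Car2, against 0.00 over all genes.

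Of the genes of bicarbonate secretion, Car2 was at 7.05 and 6.85 on the VEGF arrays and at 5.73 and 5.43 on the control arrays. Both VEGF arrays were thus above both control arrays by a wide margin. The pool means, 6.95 ± 0.14 (SD, n = 2 arrays) and 5.58 ± 0.21, differed by 1.37, with a range over the 4 array pairs of 1.12 to 1.62, which is a 2.59-fold higher level. Only 4 genes had a larger increase, Car2 being among the 5 highest of 19938. Cftr was at 2.98 and 2.99 on the VEGF arrays and at 2.96 and 3.00 on the control arrays. These values overlapped, lay well under the array medians and near the lowest value of the data, 2.41, so a difference in Cftr was not detectable at this signal.

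Prom1, the marker of apical protrusions, was at 5.85 and 5.80 on the VEGF arrays and at 5.75 and 5.77 on the control arrays. The arrays did not overlap, as in 23.7% of all genes in this direction, and the difference was 0.06, a 1.05-fold level.

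Pkhd1 was at 4.17 on both VEGF arrays and at 4.72 and 4.75 on the control arrays. The difference was -0.56, with a range of -0.58 to -0.54 over array pairs, or a control level 1.48-fold above the VEGF level, just short of the size that was called. Dcdc2a was at 5.54 and 5.66 on the VEGF arrays and at 6.24 and 6.04 on the control arrays, a difference of -0.54 with a wider range of -0.70 to -0.39. It was called lower when the second VEGF array or the second control array was left out, which takes the count of called genes from 1 to 2. The zinc finger gene Glis3 was at 5.47 and 5.45 on the VEGF arrays and at 5.86 and 6.02 on the control arrays, a difference of -0.48. Bicc1 was at 8.33 and 8.41 on the VEGF arrays and at 8.60 and 8.64 on the control arrays, a difference of -0.25. In all 4 of these genes both VEGF arrays lay below both control arrays, an arrangement that 21.6% of all genes also had. With the size lowered to 0.32 in log2 units, Pkhd1, Dcdc2a and Glis3 were called lower, against 2.76% of all genes, and Car2 alone was still called higher, against 2.4%.

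**Figure D1:**
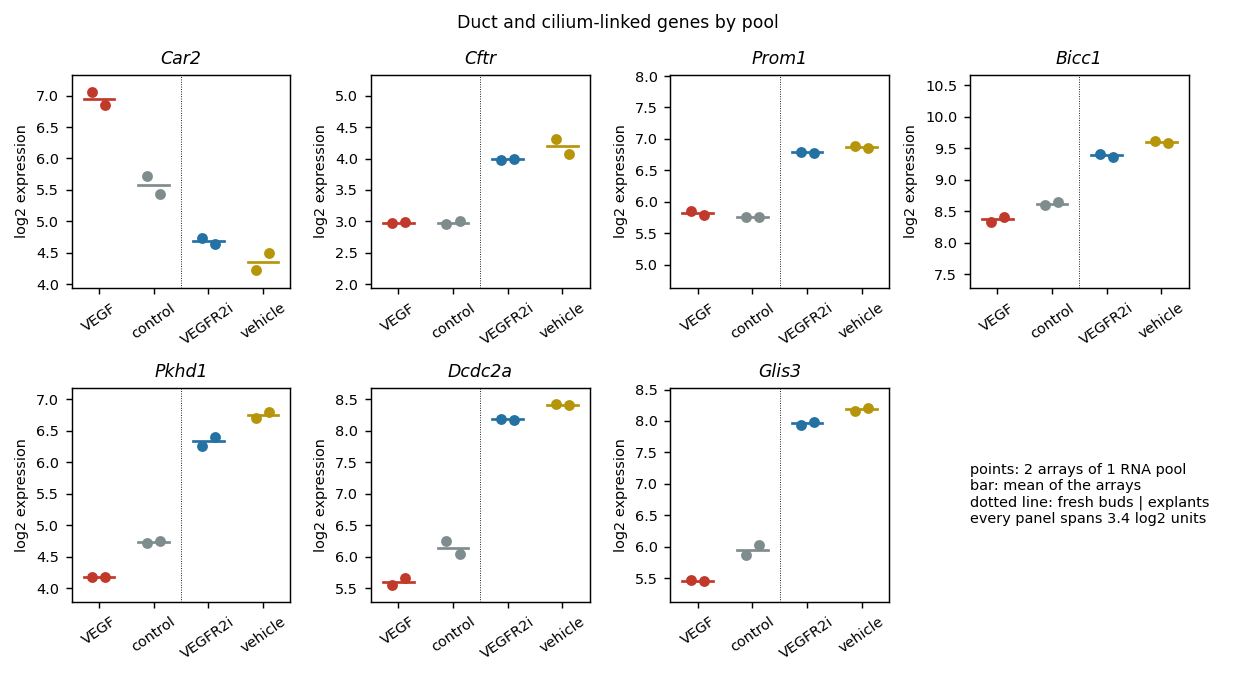
Log2 expression (y axis) of the 7 measured genes on each array, by pool (x axis); points are arrays, bars are pool means, and the dotted line parts fresh buds from explants. Car2 runs from 6.95 in the VEGF pool to 4.36 in the vehicle pool, while Dcdc2a, Glis3 and Pkhd1 sit lowest in the VEGF pool and highest in the vehicle pool.

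General epithelial genes differed by as much as Pkhd1, Dcdc2a and Glis3 did. In a list of 20 measured epithelial genes, 11 were called lower, 0 were called higher and all 20 differences were below 0, with a median of -0.59. Cdh1, the cadherin of epithelial junctions, differed by -0.64, the splicing factor Esrp1 by -0.78, and the protease inhibitor Spint1 by -0.76. Measured from that median, Pkhd1 was 0.03 above it, Dcdc2a 0.05, Glis3 0.11, Bicc1 0.34, Cftr 0.60, Prom1 0.66 and Car2 1.97. The place of Cftr is not informative, because its signal in both pools was near the lowest value of the data. With all arrays, all 7 genes were thus above the epithelial median, and their own median lay 0.34 above it. That count did not hold when an array was left out: 6 of the 7 were above it without either VEGF array or without the second control array, and 5 without the first control array. With the mean of Cdh1 and Epcam as the reference, 6 were above it. A difference of this kind within an array shows unequal change only.

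**Figure D2:**
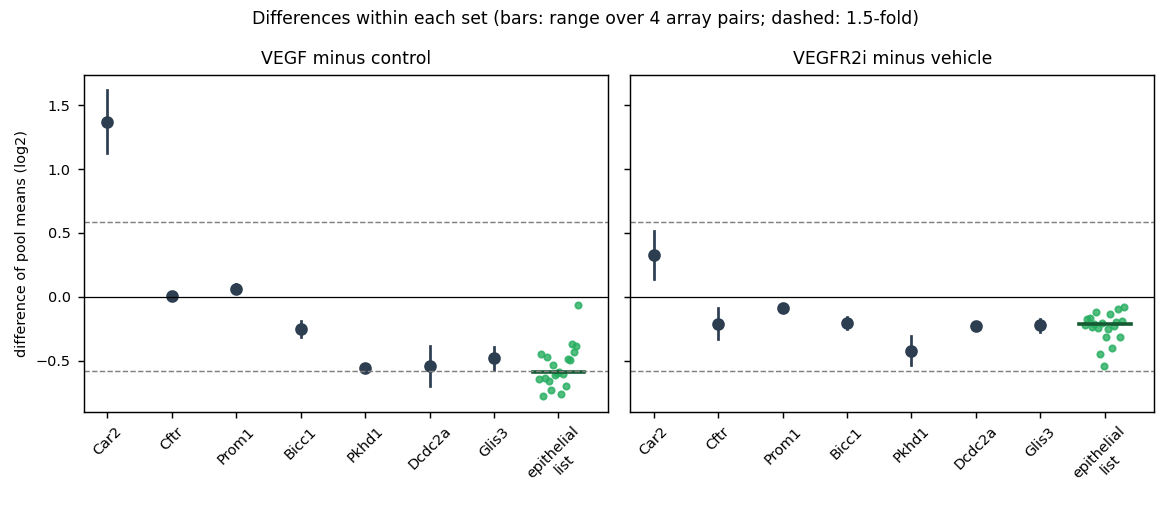
Differences of pool means on the log2 scale (y axis) for the 7 genes and the 20 epithelial genes (x axis), in the buds on the left and the explants on the right; bars give the range over the 4 array pairs, the green line is the median of the epithelial list and dashed lines mark 1.5-fold. Car2 in the buds, at 1.37, is the one gene of the 7 past the dashed lines.

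Other duct genes differed among themselves between VEGF and control buds. Of 23 measured, 4 were called lower and 0 higher, with a median of -0.08. The called genes were the mucin Muc1 (-1.005), the progenitor and duct factor Sox9 (-0.70), the tight junction gene Cldn4 (-0.68) and the transcription factor Onecut1 (-0.64). Duct transporters had smaller values, with -0.08 for the bicarbonate transporter Slc4a4 and 0.15 for the chloride transporter Slc12a2. Among 54 genes of the primary cilium and of cystic disease, 0 were called in either direction, 37 differences were below 0 and the median was -0.03. The extremes were Dzip1l (0.41) and the ciliary dynein Dync2h1 (-0.37), and Rfx3, a transcription factor of ciliary genes, differed by -0.30. Anks6 and Nek8, whose proteins act with Bicc1 in the cystic disease network, differed by -0.24 and 0.03.

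Car2 is also abundant in red blood cells, and red cell genes moved with it in the buds. Of 14 measured red cell genes, 7 were called higher and 0 lower, with a median difference of 0.58. The summed level of the list was 13.06 and 13.07 on the VEGF arrays and 12.49 and 12.52 on the control arrays. The embryonic globin Hbb-bh1 had the largest difference, 1.72, followed by Slc4a1, the red cell anion exchanger, with 1.37 and Rhag with 1.13; for Alas2, which makes haem, it was 1.01. The list ran from -0.11 to 1.72, with 1 difference below 0, and the globins Hbb-y and Hba-x differed by 0.38 and 0.93. The other 15 carbonic anhydrase genes included none called, their differences running from -0.24 to 0.24 with a median of -0.04. Among them Car1, a red cell enzyme in the adult, was at 3.25 in the VEGF pool and 3.29 in the control pool. The 10 mesothelial genes, of which 6 were called higher (median 0.66), and the 22 endothelial genes, of which 8 were called higher (median 0.53), moved the same way as Car2. The part of red cells, mesothelium or vessels in the Car2 difference was not tested. Leukocyte genes had a median of 0.03 and 0 of 19 called.

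**Figure D3:**
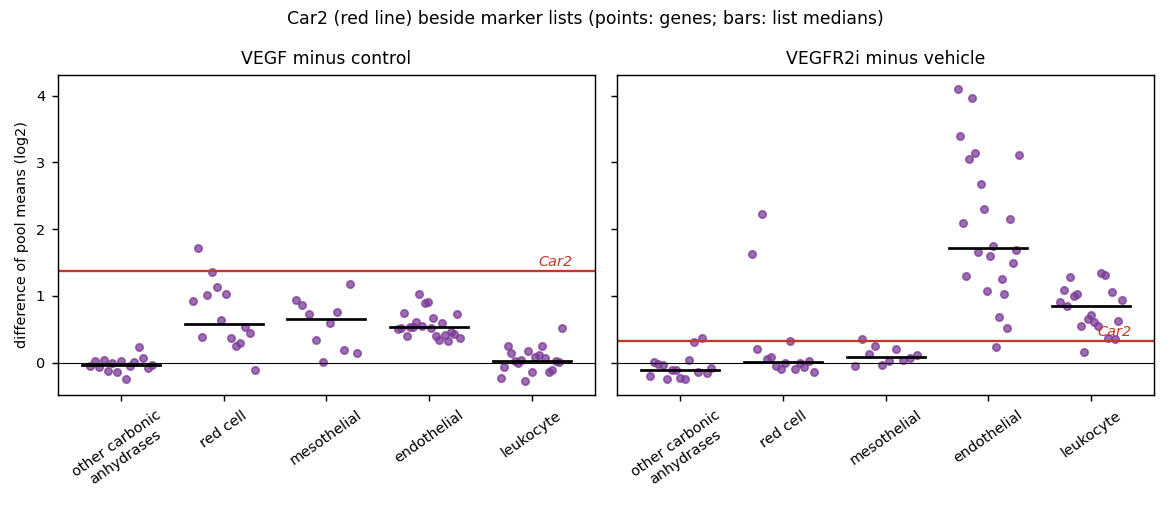
Differences of pool means on the log2 scale (y axis) for the genes of 5 marker lists (x axis; points are genes and black bars list medians), with the difference of Car2 as a red line. In the buds on the left the line at 1.37 lies within the spread of the red cell genes and above all other carbonic anhydrases; in the explants on the right it lies at 0.33.

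The explant pools differed little in these genes. None of the 7 was called in the pool labelled VEGFR2i against the pool labelled vehicle, where 1.82% of all genes were called higher and 0.371% lower. Endothelial genes go against these labels, with 20 of 22 called higher in the pool labelled VEGFR2i and a median of 1.71, so directions here follow the labels and are not read as an effect of the inhibitor. Of the 7 genes, 6 had differences below 0, between -0.42 and -0.09, and Car2 had 0.33. Over all genes, 51.8% of differences were below 0.

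The largest of the 6 was that of Pkhd1, at 6.26 and 6.40 in the pool labelled VEGFR2i and at 6.71 and 6.80 in the pool labelled vehicle. The arrays did not overlap, and the difference of -0.42 ranged from -0.54 to -0.31 over array pairs. Dcdc2a was at 8.19 and 8.18 against 8.43 and 8.41, a difference of -0.23. Glis3 was at 7.93 and 7.99 against 8.17 and 8.21, a difference of -0.22. Dcdc2a and Glis3 thus differed by nearly the same amount, and Pkhd1 lay apart from them.

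Bicc1 was at 9.42 and 9.37 against 9.62 and 9.58, a difference of -0.21. Its other probe set, at 7.77 ± 0.08 against 8.06, gave -0.29 there and -0.19 between VEGF and control buds, the same sign in both. Prom1 was at 6.80 and 6.78 against 6.89 and 6.86, a difference of -0.09. The channel gene Cftr was at 3.98 and 3.99 against 4.31 and 4.08, a difference of -0.21 that rests largely on the first vehicle array, since it was -0.09 without that array. Car2 was at 4.74 and 4.64 against 4.22 and 4.49, a difference of 0.33 that ranged from 0.14 to 0.52. All 7 genes had arrays that did not overlap between the explant pools, in directions that 25% (lower) and 25.9% (higher) of all genes also had.

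The epithelial list had a median of -0.22 between the explant pools, with 0 of 20 genes called and all 20 differences below 0. Bicc1 and Cftr lay 0.01 above that median and Dcdc2a and Glis3 0.01 below it, Prom1 was 0.13 above it, Car2 0.55 above it and Pkhd1 0.21 below it. Among the 23 other duct genes, 2 were called higher in the pool labelled VEGFR2i, the water channel Aqp1 (0.92), which capillaries also express, and Tspan8 (0.68). The median of that list was -0.09, and that of the 54 cilium and cyst genes was 0.05, with 0 called. Of 14 red cell genes, 2 were called higher, both embryonic globins, with 2.23 for Hbb-y and 1.62 for Hba-x, which are larger differences than that of Car2. The median of the red cell list was 0.01, and 6 of the 14 differences were below 0. Leukocyte genes had 14 of 19 called higher and a median of 0.84. Their part in the Car2 difference was not tested.

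The bud and the explant comparison share no arrays, and 4 genes had differences below 0 in both: Pkhd1, Bicc1, Dcdc2a and Glis3. Over all genes 27.7% had differences below 0 in both, and all 20 measured epithelial genes did.

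Levels were also set across the sets, explants against fresh buds, where culture, days since e12.5, genotype and perhaps the normalization differ and cannot be told apart. A gene was called here when the means of the 4 arrays of each set differed by at least 2-fold and no explant array overlapped a bud array. Of the 7 genes, 5 were called higher in the explants and 1 lower, where 7.84% and 1.5% of all genes were called. The sets differ in scale: the median difference over all genes was 0.16 as deposited, -0.05 with arrays centred on their medians and 0.00 with all 8 arrays quantile normalized to 1 distribution. Over all genes the rule called 1564 higher and 300 lower as deposited, 1101 and 471 with centred arrays, and 969 and 557 with 1 distribution.

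Pkhd1, Dcdc2a and Glis3 were the genes with much higher levels in the explants. Dcdc2a was at a mean of 8.30 in the explants and 5.87 in the buds, a difference of 2.43 or 5.39-fold, and 2.27 above the median of all genes. Glis3 was at 8.07 against 5.70, a difference of 2.37 and 2.21 above that median. The fibrocystin gene Pkhd1 was at 6.54 against 4.45, a difference of 2.09 and 1.93 above it. Under centred arrays these differences were 2.21, 2.15 and 1.87, and on 1 distribution 2.11, 2.04 and 1.79. The gaps between the lowest explant array and the highest bud array were 1.94, 1.91 and 1.51.

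Cftr, Prom1 and Bicc1 had differences near 2-fold. Cftr was at 4.09 against 2.98 (1.11), Prom1 at 6.83 against 5.79 (1.04) and Bicc1 at 9.49 against 8.50 (1.00, short of the call by less than 0.01). With the probe sets used, none of these genes reached 2-fold with arrays centred or on 1 distribution, where Prom1 was at 0.82 and 0.70 and Bicc1 at 0.78 and 0.69. Bicc1 was called when both of its probe sets were averaged, at 1.33. Its other probe set alone differed by 1.66 as deposited, or 3.16-fold, so the size for Bicc1 depends on the probe set. Even the higher Cftr mean, 4.09, stayed below the explant array medians, though the first vehicle array, at 4.31, lay within their range.

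Car2 went the other way, at 4.52 in the explants against 6.27 in the buds, a difference of -1.74, or a bud level 3.35-fold above that of the explants. It was -1.96 with centred arrays and -2.03 on 1 distribution. Its pool means were, from high to low, 6.95 in VEGF, 5.58 in control, 4.69 in VEGFR2i and 4.36 in vehicle, and the arrays of neighbouring pools in that order did not overlap. Of the 14 red cell genes, 6 were called lower in the explants and 2 higher, with a median of -0.83. Hba-x differed by -4.62, Slc4a1 by -3.49, Hbb-y by -3.41 and Alas2 by -3.39. The summed level of the red cell list lay between 10.4 and 10.5 in the pool labelled VEGFR2i and was 9.0 in the pool labelled vehicle. It thus followed the same order over the 4 pools as Car2, but the median level of the red cell list did not (VEGFR2i 3.57, vehicle 3.58). The summed levels of the endothelial and mesothelial lists also ran in the Car2 order. The median level of the endothelial list did so too. That of the mesothelial list did not (VEGF 6.44, control 5.56, VEGFR2i 5.93, vehicle 5.81). The part of red cells, vessels or mesothelium in the Car2 levels was not tested. Among the other carbonic anhydrases, the hypoxia-induced Car9 differed by 3.41, at 7.04 and 7.28 in the explant pools against 3.63 and 3.87 in the buds, and Car13 by 1.08.

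**Figure D4:**
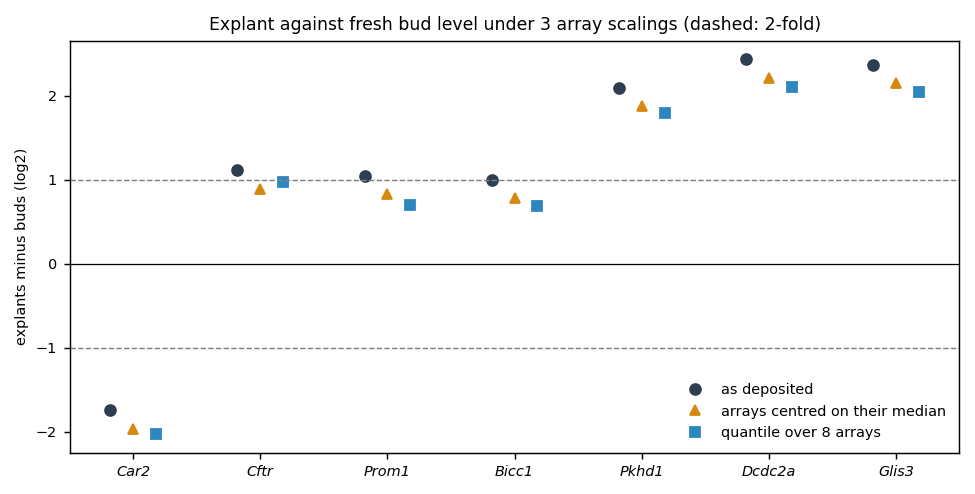
Explant minus bud difference on the log2 scale (y axis) for each gene (x axis) with the values as deposited, with arrays centred on their medians and with all 8 arrays on 1 distribution; dashed lines mark 2-fold. Pkhd1, Dcdc2a, Glis3 and Car2 lie past the lines under each scaling, and Cftr, Prom1 and Bicc1 lie near or inside them.

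Beside these values, 18 of the 20 epithelial genes were called higher in the explants, with a median of 1.63. Dcdc2a lay 0.80, Glis3 0.74 and Pkhd1 0.46 above that median, and Cftr lay 0.52, Prom1 0.59 and Bicc1 0.63 below it. Of the 23 other duct genes, 12 were called higher and 0 lower, with a median of 1.03. Clu (3.18), Muc1 (2.74), Anxa4 (2.51) and the duct keratin Krt19 (2.04) had the largest differences. The 54 cilium and cyst genes had 1 called higher, Cep290 (1.08), and a median of 0.20. That is close to the 0.16 over all genes.

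The profiles over the 4 pools fell close together for some of the 7 genes. Likeness was measured as the root mean square distance between the 4 pool means, each profile centred on its own mean, which is a description over 4 pools with large shared differences between the sets. Dcdc2a and Glis3 were the closest pair at 0.04, and Pkhd1 was 0.16 from Glis3 and 0.18 from Dcdc2a. Cftr and Prom1 were 0.06 apart, Cftr and Bicc1 0.11, and Bicc1 and Prom1 0.12. Car2 was at least 1.47 from every other gene of the 7.

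Among the 2519 other genes whose pool means span at least 1 log2 unit, Glis3 itself ranked the third in likeness to Dcdc2a, after Lurap1l (0.014) and Hap1 (0.022). For Glis3 the closest were Rem2, Lurap1l and Fermt1, at distances near 0.03. The closest to Pkhd1 were the tight junction gene Ocln (0.030), Lrp11 (0.043) and Kif21a (0.050). Ocln was at 5.72, 6.26, 7.91 and 8.36 in the VEGF, control, VEGFR2i and vehicle pools. Bicc1 was closest to Rybp, Rpph1 and Ctnnal1, Prom1 to Lpcat4, Trmt9b and Cebpb, and Cftr to Cdk2ap2, 2210407C18Rik and Elmod1. The nearest to Car2 were the mesothelial factor Lhx9 (0.17), Ehd3 (0.24) and Oit3 (0.24), farther off than the nearest of the other measured genes. The distance to Lhx9 was like that of Pkhd1 from Glis3 (0.16) and Dcdc2a (0.18).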

How the data were processed

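The authors deposited RMA values in log2 units, 1 for each probe set, computed with version 6.5 of Partek Genomic Suite according to the design text, per the labels. Their log2 scale was inferred from their range. The sources used here do not give whether buds and explants were normalized together. Of 35399 probe sets, 21789 had 1 symbol in the platform annotation, whose names were kept, 1621 had several and 11989 were not listed. The probe set with the highest mean stood for a gene. With 1 pool per condition, genes were called by size, not by a test, and the number of arrays limits the precision. Such a call was tried on simulated arrays. The planted changes were well above the called size and the noise was that between arrays of a pool. The simulation therefore does not cover differences near that size or variation between pools. Members and lists were chosen with earlier results of these data known. Alternatives were other array scalings, fold sizes, averaged probe sets, a filter on dim genes, leaving out arrays, and the methods' t-test. All genes on the member list are named; list genes are among the 4 with the largest difference, and others (such as Anks6, Nek8, Rfx3, Car1, Slc4a4, Slc12a2, Cdh1, Alas2 and Car13) were chosen after their values were seen. Promoters were read from RefSeq windows of GRCm38.p6. Python 3.11.15, pandas 2.3.3 and scipy 1.17.1 were used.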

Additional observations from a re-analysis of the deposited data

How the results depend on the processing

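The counts of the 7 genes that were called kept within 1.5 times under averaged probe sets and the other array scalings. Between the sets the count was at that limit. It fell from 6 (5 higher) as deposited to 4 (3 higher) with centred arrays and with all 8 arrays on 1 distribution. Of 84 values of single differences under averaged probe sets or another array scaling, 62 moved by less than the SD between arrays and 22 by more. No called difference changed sign under these or with 1 array left out. Leaving out 1 array gave 1 to 2 called of the 7 genes between VEGF and control buds, 0 to 0 between the explant pools and 6 to 7 between the sets, and 300 to 337, 428 to 483 and 1855 to 1878 of all genes. The median of the 7 genes relative to the epithelial list ranged from 0.29 to 0.36 and from 0.0042 to 0.021 in the same way. At the smaller size of 0.32 in log2 units, 4 of the 7 genes were called between VEGF and control and 2 between the explant pools (Pkhd1 lower, Car2 higher), with 1030 and 1254 of all genes. At 2-fold, 50 and 133 of all genes were called. The methods' t-test on arrays measures hybridization error only. At an unadjusted p under 0.05 with 1.5-fold it called Car2 alone of the 7 genes and 271 of all genes for VEGF, and 0 of the 7 and 405 of all genes in the explants. After Benjamini-Hochberg adjustment these counts were 0 and 0 for VEGF and 0 and 1 in the explants. At 1.5-fold, 4240 genes were called between the sets. No paired analysis was possible because each condition was 1 pool, with a technical repeat as its second array. Low signal limits Cftr most.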
